A study of Homo sapiens with 6 samples.

Results

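The transcripts of 10 lineage transcription factors of blood were read in K562, a human chronic myelogenous leukemia line that carries the BCR-ABL fusion and has both erythroid and megakaryocytic potential. The 10 genes are GATA1, KLF1, TAL1, NFE2, LMO2, GFI1B and ZFPM1, 7 factors of the erythroid program, GATA2 and MYB, 2 factors of early progenitors, and SPI1, which encodes the myeloid factor PU.1. They were chosen by name for what they do in hematopoiesis, with earlier results of these data known. They are 10 of the 19330 genes with deposited counts. All 10 passed the filter on low counts.

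The study asked what N6AMT1, a methyltransferase, does for mitochondria, and the RNA-Seq addressed whether its depletion acts through transcription in the nucleus. The libraries are RNA-Seq of total RNA after rRNA depletion, 3 from cells with control sgRNAs (sgCtrl) and 3 from cells with sgRNAs against N6AMT1 (sgN6AMT1), each from its own lentiviral transduction with pLentiCRISPRv2, followed by puromycin selection in both groups and analysis 10 days after infection per the labels. The labels name OR11A1 and OR2M49 as the control targets, where the methods of the study have EGFP, or OR11A1 with OR2M4; every group expressed Cas9, the cells were transduced populations rather than single clones, and which sgRNA a library received is not given in the sources used here. RNA came from lysates cleared by centrifugation, so nuclear RNA may be under-represented in every library.

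GATA1 is the zinc finger factor on which red cell formation depends, and ZFPM1 (FOG1) is its partner. TAL1 binds DNA as a dimer with E proteins and is joined to GATA1 or GATA2 through LMO2 and LDB1 on erythroid enhancers, while KLF1 and NFE2 act on globin and other red cell genes and GFI1B is a repressor of the same program. GATA2 and MYB act earlier, and GATA2 gives way to GATA1 as red cells form; PU.1 and GATA1 bind each other and oppose each other in the choice between the myeloid and the erythroid fate.

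The 10 genes lie on 9 chromosomes, and by GENCODE v44 on GRCh38 each is protein coding. GATA1 spans X:48786540-48794311 (plus strand), KLF1 19:12884422-12887201 (minus), TAL1 1:47216290-47232225 (minus), NFE2 12:54292111-54301015 (minus) and LMO2 11:33858576-33892076 (minus). GFI1B spans 9:132944000-132991687 (plus), ZFPM1 16:88453280-88537031 (plus), GATA2 3:128479427-128493201 (minus), MYB 6:135181308-135219173 (plus) and SPI1 11:47354860-47378547 (minus). Whether the counting used the strand is not given in the sources used here, and TAL1, NFE2, LMO2, GFI1B, ZFPM1, GATA2 and MYB each overlap an annotated gene on the opposite strand (for GFI1B it is TSC1, over 2875 bases), so their counts may hold antisense reads. GATA1, KLF1 and SPI1 overlap no other annotated gene.

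GATA1 and GATA2 bind GATA sites, so promoters are shown for the members whose window holds such a site and for 2 members that fell in sgN6AMT1. RefSeq (GRCh38.p14) windows of 300 bases, 250 before and 50 after an annotated start, were at hand for 7 of the 10 members in 10 windows, and the others are LMO2, NFE2 and SPI1. Each sequence runs 5′ to 3′ on the gene's strand in lower case, and capitals mark a GATA match, defined as AGATAA, its variant AGATAG, and the same with T as the first base, TGATAA, with its variant TGATAG, each on either strand.
KLF1 chr19:12887152-12887451 (minus strand): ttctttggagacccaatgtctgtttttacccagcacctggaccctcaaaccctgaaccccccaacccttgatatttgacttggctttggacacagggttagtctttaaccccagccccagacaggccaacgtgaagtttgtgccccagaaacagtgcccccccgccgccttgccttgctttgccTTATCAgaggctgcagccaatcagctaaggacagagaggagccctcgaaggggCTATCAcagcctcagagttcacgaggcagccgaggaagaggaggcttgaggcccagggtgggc
TAL1 chr1:47232286-47232585 (minus strand): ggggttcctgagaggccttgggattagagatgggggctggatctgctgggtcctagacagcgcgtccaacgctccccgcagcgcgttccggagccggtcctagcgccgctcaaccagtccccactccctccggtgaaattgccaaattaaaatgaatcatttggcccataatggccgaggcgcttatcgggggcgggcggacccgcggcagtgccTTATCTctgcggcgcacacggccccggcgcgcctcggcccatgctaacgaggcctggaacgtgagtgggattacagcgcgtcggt
GFI1B chr9:132978444-132978743 (plus strand): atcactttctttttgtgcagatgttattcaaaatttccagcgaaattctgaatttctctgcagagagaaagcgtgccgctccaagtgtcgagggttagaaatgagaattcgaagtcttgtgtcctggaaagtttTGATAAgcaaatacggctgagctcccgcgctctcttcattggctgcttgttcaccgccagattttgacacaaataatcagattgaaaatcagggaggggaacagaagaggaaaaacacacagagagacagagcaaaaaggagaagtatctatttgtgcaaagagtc
MYB chr6:135181058-135181357 (plus strand): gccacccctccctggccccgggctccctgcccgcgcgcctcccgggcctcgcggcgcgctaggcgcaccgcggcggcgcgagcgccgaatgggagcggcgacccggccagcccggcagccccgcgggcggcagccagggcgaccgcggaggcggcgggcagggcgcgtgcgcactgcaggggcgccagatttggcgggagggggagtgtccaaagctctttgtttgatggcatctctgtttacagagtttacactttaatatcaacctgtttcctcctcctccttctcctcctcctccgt
ZFPM1 chr16:88453030-88453329 (plus strand): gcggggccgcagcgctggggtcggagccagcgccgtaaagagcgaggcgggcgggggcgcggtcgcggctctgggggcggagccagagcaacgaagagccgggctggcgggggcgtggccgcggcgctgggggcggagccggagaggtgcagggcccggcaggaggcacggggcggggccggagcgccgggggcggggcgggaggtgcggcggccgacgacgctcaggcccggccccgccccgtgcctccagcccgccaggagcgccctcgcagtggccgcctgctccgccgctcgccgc

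The KLF1 window held 2 GATA matches, at positions 185 and 238 of its 300 bases, and the TAL1 window held 1, at position 216. GFI1B held 1 match in each of its 2 windows. No GATA match was found in the windows of GATA1, GATA2, MYB or ZFPM1 or in the other TAL1 window. Of all 35116 promoter windows, 25.0% held a GATA match, 59.9% the letters CACCC, 68.7% the letters CANNTG and 27.9% the letters GAGGAA, each on either strand. CACCC, the core of the sites of KLF factors, occurred 4 times in the GATA1 window, 4 times in one GATA2 window and once in the other, and once each in KLF1, MYB and the TAL1 window that is not shown, and ZFPM1, at 83.0% G and C the richest window of the members, held none of the 4 motifs. These are matches of letters and not sites shown to be bound.

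Depth differed between the libraries: total counts were 742470 to 866894 in sgCtrl, 959319 in sgN6AMT1 replicate 1, and 5526904 and 4062363 in sgN6AMT1 replicates 2 and 3. Levels are therefore given as counts scaled to 1000000 per library after TMM normalization (TMM cpm), and differences as log2 fold changes of sgN6AMT1 over sgCtrl by edgeR's quasi-likelihood test over 8324 genes, with Benjamini-Hochberg adjusted p; a gene is called at an adjusted p under 0.05. N6AMT1 itself had 6, 5 and 9 counts in sgCtrl against 0, 18 and 16 in sgN6AMT1, or 8.08 ± 2.31 and 2.40 ± 2.10 cpm (SD, n = 3, exact two-sided permutation p = 0.1, the smallest possible with 3 against 3), and it failed the filter. Erythroid transcripts were abundant: the 50 erythroid effector genes summed to 17590 to 24313 cpm in sgCtrl and 24653 to 40900 cpm in sgN6AMT1, led by the gamma globins HBG1 and HBG2. CD34, IRF8, ELANE and S100A8 had 0 counts in all 6 libraries, as had 6 of 46 myeloid and 6 of 23 stem and progenitor genes in all. Other genes of these lists were present in sgCtrl, such as LCP1 (69, 105 and 113 counts) and HHEX (67, 73 and 57). The myeloid list summed to 478 to 563 cpm in sgCtrl. In RNA from a whole culture, fewer cells of a type and less RNA per cell cannot be told apart.

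Of the 10 factors, 4 were called, against 9.85% of all genes tested. SPI1 rose, and LMO2, ZFPM1 and MYB fell. SPI1 passed the filter only through the sgN6AMT1 libraries, so its place in each of the counts given here is not evidence of its own. The background is 5.09% of genes called higher and 4.76% called lower. The 6 libraries of sgCtrl and sgN6AMT1 did not overlap for 6 members (LMO2, GFI1B, ZFPM1, GATA2, MYB and SPI1), a pattern that 29.2% of all genes tested shared. At an unadjusted p under 0.05 stood 7 of the 10, against 26.2% of all genes. The median log2 fold change was -0.26 over the 7 erythroid factors, -0.49 over GATA2 and MYB, and 0.01 over all genes tested. The plot of the 10 factors by library shows SPI1 as the one member near 0 in sgCtrl.

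**Figure D1:**
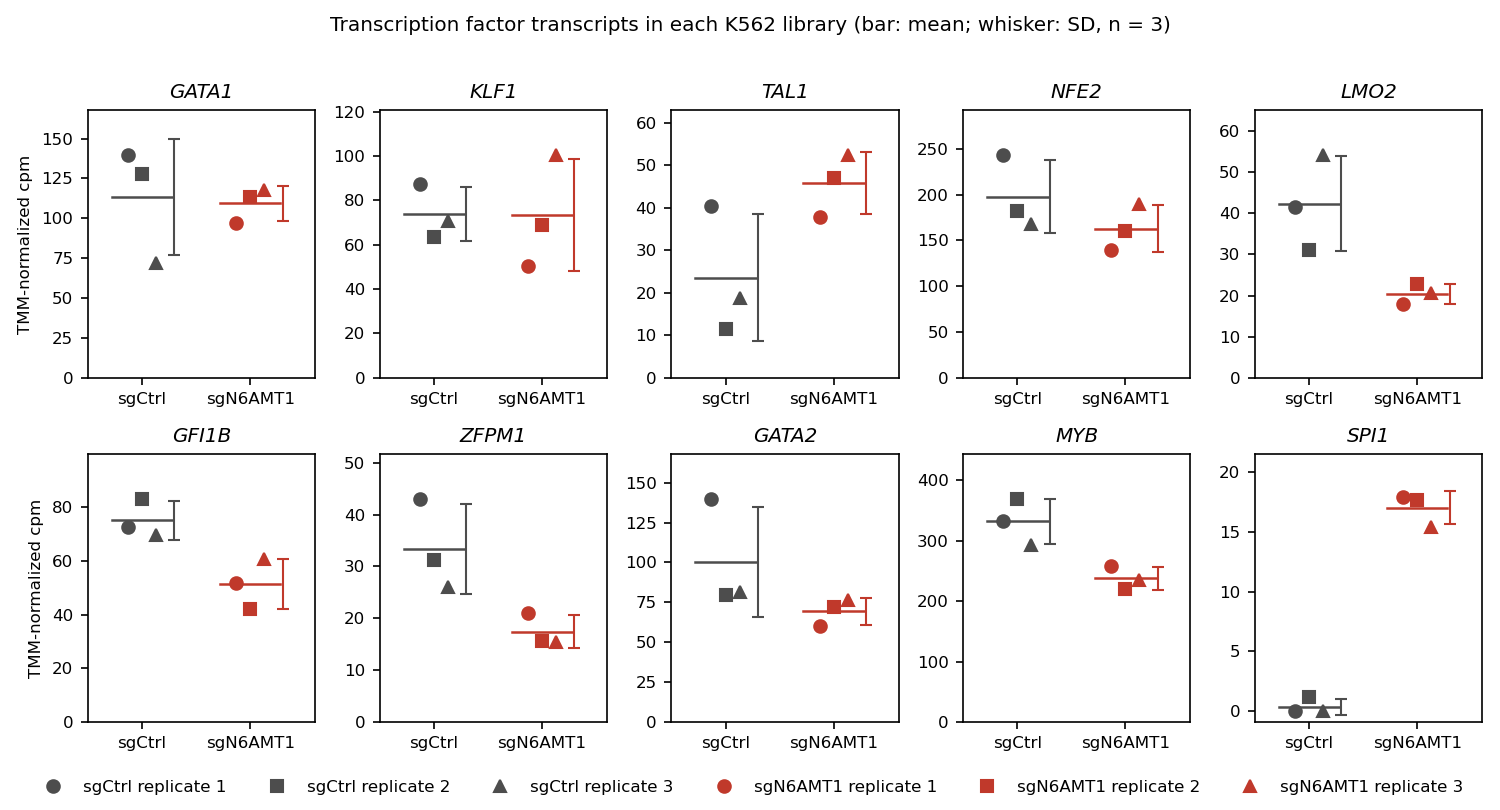
Each panel plots 1 factor as TMM cpm (vertical axis, from 0, slightly below for SPI1) in the 3 sgCtrl (gray) and 3 sgN6AMT1 (red) libraries; marker shape gives the replicate, the bar the mean and the whisker the SD. SPI1 sits at 0 to 1.15 in sgCtrl and 15.4 to 17.9 in sgN6AMT1, GATA1 overlaps between the groups, and LMO2, ZFPM1 and MYB lie lower in every sgN6AMT1 library.

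GATA1, the master factor of the red cell program, had 104, 111 and 61 counts in the 3 sgCtrl libraries against 92, 622 and 458 in the 3 sgN6AMT1 libraries. That is 140, 128 and 71.9 TMM cpm against 96.9, 114 and 118. The groups overlapped, with both the highest and the lowest library in sgCtrl. The log2 fold change was -0.03 (SE 0.20, 95% interval -0.46 to 0.40, edgeR adjusted p = 0.945), so a smaller change within these bounds was not detectable at this depth.

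KLF1, which drives beta-type globin and other red cell genes, also showed no called difference. Its levels were 87.3, 63.5 and 70.7 TMM cpm in sgCtrl and 50.6, 69.0 and 101 in sgN6AMT1, the widest relative spread among sgN6AMT1 libraries of the erythroid factors, with sgN6AMT1 replicate 1 lowest and replicate 3 highest of all 6. The log2 fold change was 0.04 (SE 0.23, 95% interval -0.44 to 0.52, edgeR adjusted p = 0.936). NFE2, the hematopoietic subunit of the NF-E2 dimer, stood at 198 ± 40.2 TMM cpm in sgCtrl against 163 ± 25.3 in sgN6AMT1 (SD, n = 3), again with overlap, and its log2 fold change was -0.26 (SE 0.17, 95% interval -0.62 to 0.10, edgeR adjusted p = 0.353).

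Of the complex that TAL1 and LMO2 build, LMO2 fell and TAL1 was not called. LMO2, the bridging protein without DNA binding of its own, had 31, 27 and 46 counts in sgCtrl against 17, 125 and 80 in sgN6AMT1, which is 41.7, 31.1 and 54.2 against 17.9, 22.8 and 20.6 TMM cpm. Every sgN6AMT1 library lay below every sgCtrl library, and the mean fell to 0.483 of the control mean (log2 fold change -1.01, SE 0.27, 95% interval -1.57 to -0.45, edgeR adjusted p = 0.0239). The call was lost without sgCtrl replicate 1 (adjusted p = 0.0675), without sgCtrl replicate 3 (0.102) and without sgN6AMT1 replicate 2 (0.0519), while the log2 fold change stayed between -1.21 and -0.79 over the fits that left out 1 library.

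TAL1, the basic helix-loop-helix partner in that complex, was measured at 40.3, 11.5 and 18.9 TMM cpm in sgCtrl and 37.9, 46.9 and 52.4 in sgN6AMT1. sgCtrl replicate 1, with 30 counts, lay above sgN6AMT1 replicate 1, with 36 counts in a larger library, and the other libraries were apart. The log2 fold change was 1.02 (SE 0.32, 95% interval 0.35 to 1.69) with an edgeR adjusted p of 0.0504, at the edge of the threshold. Without sgCtrl replicate 1 it was 1.62 (adjusted p = 0.0129) and without sgN6AMT1 replicate 1 it was 1.10 (adjusted p = 0.0292), both called, and without sgCtrl replicate 2 it was 0.67 (adjusted p = 0.275). The sgCtrl libraries held 10 to 30 counts of TAL1, and the 95% Wilson interval of sgCtrl replicate 2 alone ran from 6.27 to 21.2 cpm, for counting error only.

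ZFPM1, the cofactor that GATA1 needs at many of its targets, fell. It had 43.0, 31.1 and 25.9 TMM cpm in sgCtrl and 21.1, 15.7 and 15.4 in sgN6AMT1, without overlap (log2 fold change -0.99, SE 0.29, 95% interval -1.60 to -0.38, edgeR adjusted p = 0.0383). This call rested on several libraries: leaving out sgCtrl replicate 1 or 2 gave adjusted p = 0.180 and 0.108, leaving out sgN6AMT1 replicate 2 or 3 gave 0.131 and 0.0877, and DESeq2 gave 0.0588. GFI1B, the repressor, showed the same order of groups without a call, at 72.6, 83.1 and 69.6 TMM cpm in sgCtrl and 51.6, 42.0 and 60.7 in sgN6AMT1 (log2 fold change -0.55, SE 0.21, 95% interval -0.98 to -0.12, edgeR adjusted p = 0.0958), and it was called without sgN6AMT1 replicate 3 (-0.73, adjusted p = 0.0393).

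Both progenitor factors read lower in every sgN6AMT1 library, and MYB was called. MYB, which keeps progenitors dividing, was the most abundant of the 10 by counts: 333, 369 and 294 TMM cpm in sgCtrl and 258, 221 and 234 in sgN6AMT1, without overlap (log2 fold change -0.49, SE 0.15, 95% interval -0.80 to -0.18, edgeR adjusted p = 0.0429). Its call was lost without sgCtrl replicate 1 (adjusted p = 0.109), sgCtrl replicate 2 (0.207) or sgN6AMT1 replicate 2 (0.167). GATA2 had 140, 79.6 and 81.3 TMM cpm in sgCtrl and 60.1, 71.7 and 76.4 in sgN6AMT1, with sgCtrl replicate 1 well above the other 5 libraries. The log2 fold change of GATA2 was -0.50 (SE 0.21, 95% interval -0.95 to -0.05, edgeR adjusted p = 0.143), and without sgCtrl replicate 1 it was -0.20.

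The SPI1 transcript was near absent in control cells and present in each depleted culture. It had 0, 1 and 0 counts in the sgCtrl libraries against 17, 97 and 60 in the sgN6AMT1 libraries, or 0, 1.15 and 0 against 17.7, 17.6 and 14.8 cpm. A count of 0 allows up to 3 counts, which is 4.04 cpm in sgCtrl replicate 1 and 3.46 cpm in sgCtrl replicate 3, still below the 11.1 cpm at which the lowest 95% Wilson bound of the 3 sgN6AMT1 libraries lay (counting error only). The 3 sgN6AMT1 libraries differed little among themselves although their depth ranged from 959319 to 5526904 counts.

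By edgeR the log2 fold change of SPI1 was 5.19 (SE 0.73, 95% interval 3.66 to 6.72, adjusted p = 3.43e-04), the rank 4 of 8324 genes from the top; this fitted value depends on how the single control count is treated and is no bound. Pooled over libraries, 174 of 10548586 counts against 1 of 2475519 gave a ratio of 40.8, with a 95% counting interval of 7.23 to 1622. SPI1 passed the filter only through the sgN6AMT1 libraries, so a gene with this pattern had to differ once tested, and its exact permutation p on cpm was 0.1, the smallest 3 against 3 libraries allow. SPI1 was called in all 16 alternative fits that tested it. Over the fits that left out 1 library its highest edgeR adjusted p was 0.00587. With sgN6AMT1 replicates 2 and 3 thinned to 858710 counts its log2 fold change was 4.83. With the shallow sgN6AMT1 replicate 1 alone in its group it was 5.04. SPI1 was not tested where 10 counts in every library were required. In these pooled cultures, low SPI1 RNA in many cells and high SPI1 RNA in a few cannot be told apart.

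**Figure D2:**
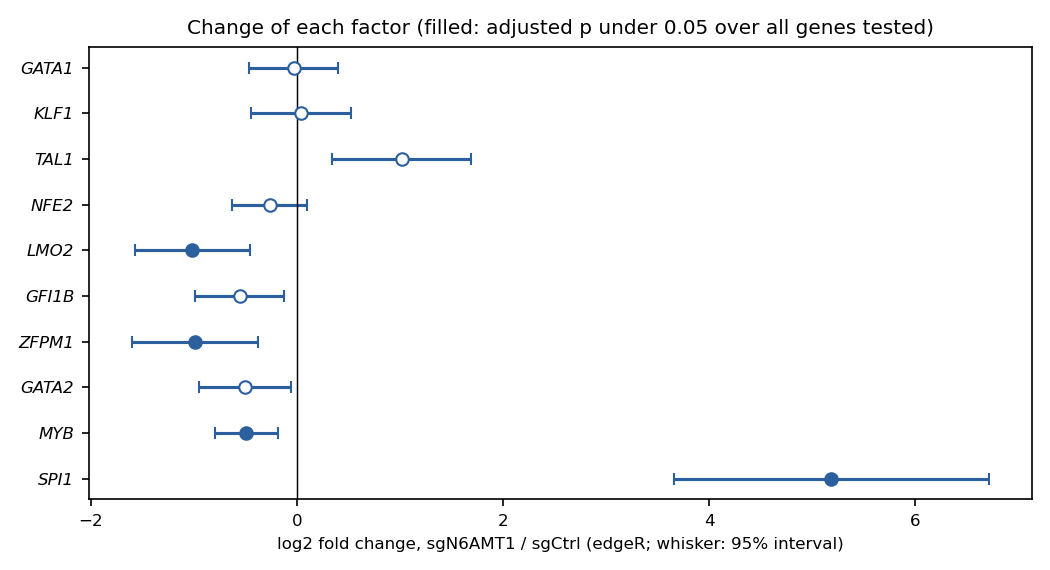
Log2 fold change of each factor (horizontal axis, sgN6AMT1 over sgCtrl, edgeR) with its 95% interval as a whisker; filled points are called at an adjusted p under 0.05 over all genes tested. SPI1 stands at 5.19, LMO2, ZFPM1 and MYB are filled on the lower side, and TAL1 at 1.02 is open with an adjusted p of 0.0504.

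No tested neighbour of SPI1 was called. PSMC3, downstream in genome order, had a log2 fold change of 0.01 (edgeR adjusted p = 0.969) and MADD one of 0.18 (adjusted p = 0.652). MYBPC3, which lies 2157 bases from SPI1, had 0 counts in all 6 libraries.

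Compared per kilobase of the MANE Select transcript, the order of the factors differed between the groups mainly at its lower end. In sgCtrl the levels ran from NFE2 (119 ± 24.3 TMM cpm per kb, SD, n = 3) over MYB (90.1 ± 10.3), GATA1 (77.4 ± 24.8), KLF1 (45.8 ± 7.59), GFI1B (41.7 ± 3.95), GATA2 (29.6 ± 10.1) and LMO2 (20.3 ± 5.55) to ZFPM1 (6.14 ± 1.61), TAL1 (5.08 ± 3.22) and SPI1 (0.280 ± 0.485). Neighbours in this order overlapped in their libraries except NFE2 and MYB, LMO2 and ZFPM1, and TAL1 and SPI1. In sgN6AMT1, SPI1 at 12.4 ± 1.00 TMM cpm per kb stood above TAL1 (9.86 ± 1.58), LMO2 (9.82 ± 1.18) and ZFPM1 (3.20 ± 0.587), overlapping TAL1. GATA1 remained above SPI1, at 74.7 ± 7.51 TMM cpm per kb.

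**Figure D3:**
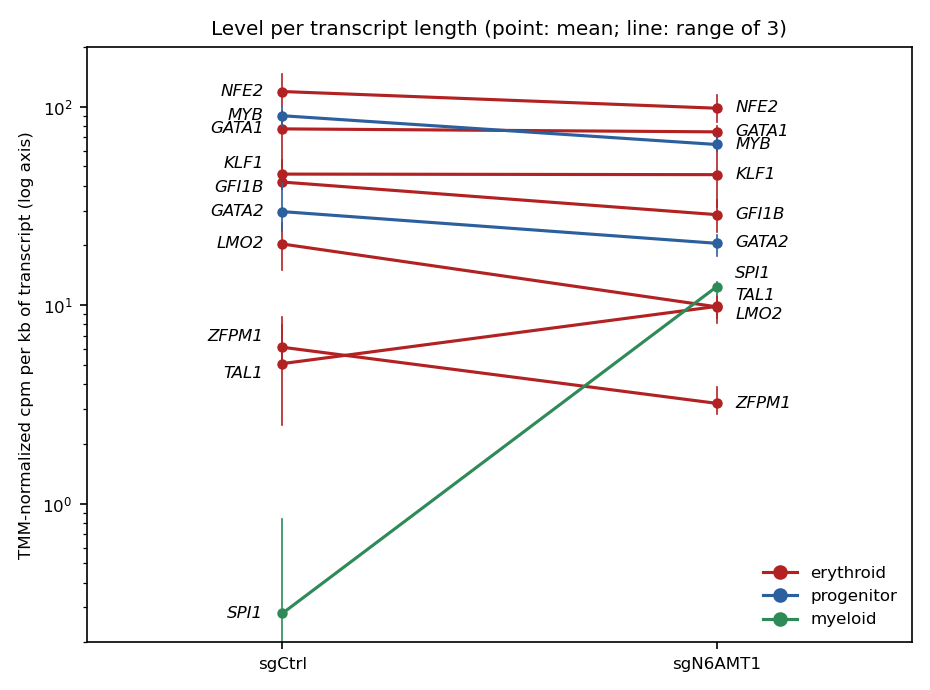
Mean level of each factor per kilobase of transcript (vertical log axis, TMM cpm per kb) in sgCtrl and sgN6AMT1, with the range of the 3 libraries as a vertical line; the SPI1 range in sgCtrl reaches 0 and is cut at the axis. SPI1 goes from 0.280 to 12.4, past ZFPM1, LMO2 and TAL1, while GATA1 and KLF1 run nearly level.

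The ratio of erythroid to progenitor factors and to SPI1 was then taken within each library, as a description with no test. The mean log2 TMM cpm of the 7 erythroid factors (prior count 2) minus that of GATA2 and MYB was -1.48, -1.63 and -1.46 in sgCtrl and -1.39, -1.28 and -1.18 in sgN6AMT1. The groups did not overlap, and the erythroid factors stood 0.24 higher against the progenitor factors in sgN6AMT1. That difference was -0.00312 after correction for the GC content and length of the transcripts, so it does not hold under that correction; MYB has 43.9% G and C and ZFPM1 68.9%. Against SPI1 the erythroid mean was 6.37, 4.73 and 5.91 log2 units higher in sgCtrl and 1.35, 1.48 and 1.86 higher in sgN6AMT1. With 0, 1 and 0 SPI1 counts in sgCtrl, the control values are set by the prior count and the depth and are neither measured levels nor bounds, and the difference between the groups moved from -4.10 to -2.97 after thinning.

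The pair that changes over as red cells form, GATA1 and GATA2, read 1.00, 1.61 and 0.884 GATA1 counts per GATA2 count in sgCtrl and 1.61, 1.58 and 1.54 in sgN6AMT1. sgCtrl replicate 2 lay inside the sgN6AMT1 range, so the groups overlapped. SPI1 had 0, 0.901 and 0 counts per 100 GATA1 counts in sgCtrl against 18.5, 15.6 and 13.1 in sgN6AMT1. The groups were far apart in this ratio, through the SPI1 counts.

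The proteins that work with the erythroid factors were read from a list of 50 partners and cofactors, 41 of them tested. Of these 9 fell and 1 rose, or 24.4% called against 9.85% of all genes, and the median log2 fold change was -0.37. BRD3, a reader of acetylated lysine that binds acetylated GATA1, fell from 30.0 ± 6.63 to 8.79 ± 4.40 TMM cpm (log2 fold change -1.63, edgeR adjusted p = 0.00926). So did the acetyltransferases CREBBP (-1.03, adjusted p = 0.00511) and EP300 (-0.80, adjusted p = 0.0266).

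CBFA2T3 (ETO2), the corepressor of the TAL1 complex, had 39, 39 and 27 counts in sgCtrl against 16, 48 and 59 in sgN6AMT1, which is 43.1 ± 10.4 against 13.6 ± 4.27 TMM cpm (log2 fold change -1.75, edgeR adjusted p = 0.00238). CBFA2T3 and BRD3 passed the filter only through the sgCtrl libraries, so their calls lean on that rule. RCOR1 (CoREST), the partner of GFI1B, fell by 0.80 on the log2 scale (adjusted p = 0.0370), and STAT5A, which carries erythropoietin signals, by 0.79 (adjusted p = 0.00486). The one partner that rose was LYL1, the paralog of TAL1, from 61.9 ± 1.67 to 114 ± 26.9 TMM cpm (0.90, adjusted p = 0.00995), with no overlap between the groups. SSBP3 and GATAD2A also fell, and LDB1, the core of the complex, had a log2 fold change of -0.52 (adjusted p = 0.0555); these 3 are named after their values were seen. CHD4, RBBP4 and MTA2, the most abundant of the list and subunits of the NuRD complex that ZFPM1 recruits, were not called (-0.07, -0.28 and -0.07). STAT5A kept its call in all 17 alternative fits. RCOR1 kept it in 1 of the 6 fits that left out 1 library (without sgN6AMT1 replicate 1), EP300 lost it without sgCtrl replicate 1, sgCtrl replicate 2 or sgN6AMT1 replicate 2 (adjusted p = 0.160, 0.0889 and 0.0884), BRD3 without sgCtrl replicate 1 (0.0601) and LYL1 without sgCtrl replicate 2 (0.0633). Of the partners, 4 fell without sgCtrl replicate 1, 5 without sgCtrl replicate 2 or sgN6AMT1 replicate 2, 6 without sgN6AMT1 replicate 3, and 3 without both deep sgN6AMT1 libraries, while the calls over all genes went from 820 to 301, 220, 495, 538 and 122 in that order of libraries.

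The genes that these factors control in red cells moved both ways. Of 50 erythroid effector genes 40 were tested, 8 rose and 3 fell, 27.5% called against 9.85% of all genes, with a median log2 fold change of 0.12. ALAS2, the first enzyme of heme synthesis in red cells, rose from 76.3 ± 7.43 to 274 ± 44.5 TMM cpm (1.84, edgeR adjusted p = 6.59e-06) and was called in all 17 alternatives. RHCE, a Rh blood group protein, rose by 1.66 on the log2 scale (adjusted p = 0.00497), the kinase PIM1 by 0.99 (adjusted p = 0.00355) and the embryonic globin HBE1 by 0.89 (adjusted p = 0.00414). RHCE passed the filter only through the sgN6AMT1 libraries, so its call leans on that rule.

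The fetal globins HBG2 (1.05, edgeR adjusted p = 0.0144) and HBG1 (1.04, adjusted p = 0.0149) were also called, but their libraries overlapped between groups. Since the copies are near identical, their reads cannot be assigned with certainty, and the 2 calls may be 1 signal. With RHCE leaning on the filter too, the share of 27.5% called is not evidence of its own. HEMGN, a nuclear protein of maturing red cells, fell from 284 ± 37.1 to 151 ± 31.6 (-0.93, adjusted p = 0.00296). EPB41 and KEL rose and JAK2 fell as well, named after their values were seen. HBG1 and HBG2 lost their call without sgCtrl replicate 1 (adjusted p = 0.0756 and 0.0743), without sgCtrl replicate 2 (0.111 and 0.110) and by DESeq2 (0.120 and 0.118), and HBE1 lost it without sgCtrl replicate 2 (0.0561). Of the effectors, 4 rose and 2 fell without sgCtrl replicate 1, 3 rose and 2 fell without sgCtrl replicate 2, and 1 rose and 1 fell without both deep sgN6AMT1 libraries, ALAS2 being the one that rose.

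Genes of the myeloid lineage, in which SPI1 acts, were read from 46 genes, of which 14 were tested. Of those 7 rose and 2 fell, 64.3% called against 9.85% of all genes, and the median was 0.82. This list holds CAPG, which was already known to rise in these libraries. Of the called genes, FCGR1A, CAPG and JUN passed the filter only through the sgN6AMT1 libraries, and EGR1 only through sgCtrl. Their calls lean on that rule, so the share is not evidence of its own. Among the 8 that reached 10 counts in each of the 6 libraries 4 rose and 1 fell. Of all 7129 genes that met this stricter filter 701 were called. FCGR1A, the high-affinity receptor for IgG of monocytes, had 1, 0 and 0 counts in sgCtrl against 15, 63 and 94 in sgN6AMT1 (edgeR adjusted p = 9.95e-04). CAPG, an actin-capping protein of macrophages, had 2, 6 and 9 against 42, 237 and 252 counts (2.89, adjusted p = 2.49e-04).

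CD33, a myeloid surface lectin, rose from 17.2 ± 3.94 to 39.6 ± 3.30 TMM cpm (1.21, edgeR adjusted p = 0.0120), LCP1, the leukocyte plastin, by 0.80 (adjusted p = 0.00640) and JUN, a subunit of AP-1, by 1.58 (adjusted p = 0.00876). CYBA, a subunit of the phagocyte NADPH oxidase, and LYZ, lysozyme, rose by 0.89 (adjusted p = 0.0256) and 0.83 (adjusted p = 0.0489) on the log2 scale, though the call of LYZ held in 1 of 6 fits without 1 library (sgN6AMT1 replicate 1) and that of CYBA in 2 (sgCtrl replicate 3 and sgN6AMT1 replicate 1). EGR1, an early response factor, fell by 1.44 (adjusted p = 0.0119), and the other gene that fell was SPN, named after its values were seen. BTK, a kinase also found in B cells, was not called (-0.20). CD33 lost its call without sgCtrl replicate 2 (adjusted p = 0.0917), JUN without sgCtrl replicate 1 (0.0513), and EGR1 without either (0.0597 without replicate 1 and 0.0652 without replicate 2). Without sgCtrl replicate 1 the list held 5 genes that rose and 0 that fell of 15 tested. Without sgCtrl replicate 2 it held 4 that rose and 0 that fell of 15. Without sgN6AMT1 replicate 3 it held 4 that rose and 1 that fell of 13. Over all genes 301 of 8594, 220 of 8651 and 538 of 8449 were called in these 3 fits. CAPG was among the genes that rose in each, so these counts also lean on the filter. Without both deep sgN6AMT1 libraries the median log2 fold change of the list was 0.49.

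A further 7 of the 46 myeloid genes had 0 counts in each sgCtrl library and at least 1 in each sgN6AMT1 library, against 1.38% of all 19330 genes (267 genes); the reverse pattern occurred for 0.00517% of genes, and the sgN6AMT1 libraries were deeper. Among them were CEBPE, CSF3R, ITGAM, CD14, TYROBP and NCF4, named after their values were seen. ITGAM, the alpha chain of the Mac-1 integrin, had 5, 55 and 50 counts, or 5.21, 9.95 and 12.3 cpm. Its mean of 9.16 cpm was 7.56 times the 1.21 cpm that 3 counts over the sgCtrl group allow. This ratio leaves out the counting error of ITGAM and is no lower bound. CD14 had 1 count in each sgN6AMT1 library. The summed level of the whole myeloid list was 478 to 563 cpm in sgCtrl and 740 to 801 cpm in sgN6AMT1. IRF8, ELANE, AZU1, CTSG, S100A8 and CSF2RA, which mark monocytes and granulocytes, were at 0 in all 6 libraries. The part of these genes' levels in the SPI1 result was not tested.

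**Figure D4:**
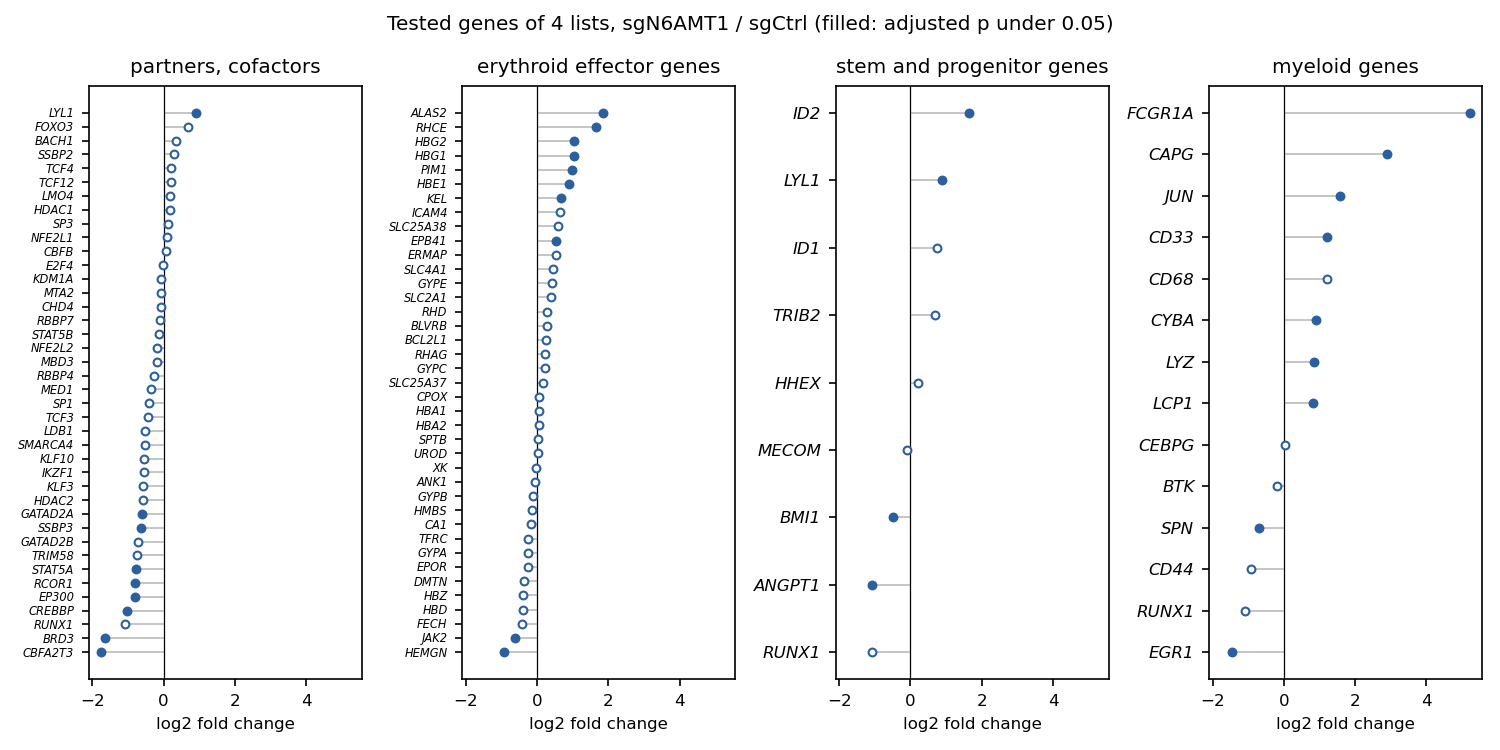
Log2 fold change (horizontal axis, sgN6AMT1 over sgCtrl) of tested genes of the lists of partners and cofactors, erythroid effectors, stem and progenitor genes, and myeloid genes, sorted within each list; filled points have an adjusted p under 0.05. Of the partners shown, LYL1 alone is filled on the higher side, and FCGR1A and CAPG lead the myeloid genes.

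Beside GATA2 and MYB, 23 stem and progenitor genes were read, 9 of them tested, and 2 rose and 2 fell, 44.4% called against 9.85% of all genes, with a median of 0.22. LYL1 rose as given above, and ID2, an inhibitor of basic helix-loop-helix factors, had 2, 5 and 5 counts in sgCtrl against 14, 89 and 58 in sgN6AMT1 (log2 fold change 1.65, edgeR adjusted p = 0.0203). ID2 passed the filter only through the sgN6AMT1 libraries, and LYL1 is also counted among the partners. The share of 44.4% is therefore not evidence of its own. ANGPT1, a ligand of the TIE2 receptor, fell by 1.07 (adjusted p = 0.0101) and BMI1, a Polycomb protein of self-renewing cells, by 0.50 (adjusted p = 0.0489). BMI1 kept its call in 1 of 6 fits without 1 library (sgN6AMT1 replicate 1), ID2 lost it without sgCtrl replicate 1, sgCtrl replicate 2 or sgN6AMT1 replicate 2 (0.0980, 0.0836 and 0.0690), and ANGPT1 without sgCtrl replicate 2 (0.0997). No gene of this list was called without sgCtrl replicate 2 or without both deep sgN6AMT1 libraries. HHEX, a homeobox factor, stood at 80.5 ± 11.9 and 92.5 ± 7.34 TMM cpm. RUNX1, on this and on 3 other lists and named after its values were seen, had a log2 fold change of -1.08 with an adjusted p of 0.0524.

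The genes most like each of 5 factors across the 6 libraries were taken from those with at least 50 TMM cpm, by the root mean square (RMS) difference of centred log2 levels. They were RBM5, PPP5C and DHCR7 for GATA1 (RMS 0.0521, 0.0925 and 0.111), CHAF1B, IFRD1 and NAA20 for LMO2 (0.145, 0.198 and 0.206), EP300, SRRM2 and SRCAP for ZFPM1 (0.0841, 0.121 and 0.121), and HMGA1, HMGN1 and ATXN10 for MYB (0.0438, 0.0447 and 0.0525). For SPI1 the nearest were FN1, GPAT3 and ALAS2, at 0.698, 1.12 and 1.13 log2 units. SPI1 itself lies below 50 TMM cpm and its sgCtrl values are set by the prior count. Genes as low as SPI1 were not compared, so these distances cannot be set against those of the other factors.

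Correcting for GC content and transcript length called 7 members in place of 4. Over all genes 909 of 8174 were called in that fit, 412 higher and 497 lower. The members added were NFE2 (-0.48, edgeR adjusted p = 0.0431), GFI1B (-0.79, adjusted p = 0.0156) and GATA2 (-0.64, adjusted p = 0.0354), all lower in sgN6AMT1. With sgN6AMT1 replicates 2 and 3 thinned to 858710 counts, LMO2 and SPI1 were called, against 633 of 8209 genes. Without both of these libraries the log2 fold change of SPI1 was 5.04. The map of fold changes under each fit shows GATA1 and KLF1 pale and of changing sign, LMO2, ZFPM1 and MYB lower in all 17 alternatives whether called or not, and SPI1 high in all 16 that tested it.

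**Figure D5:**
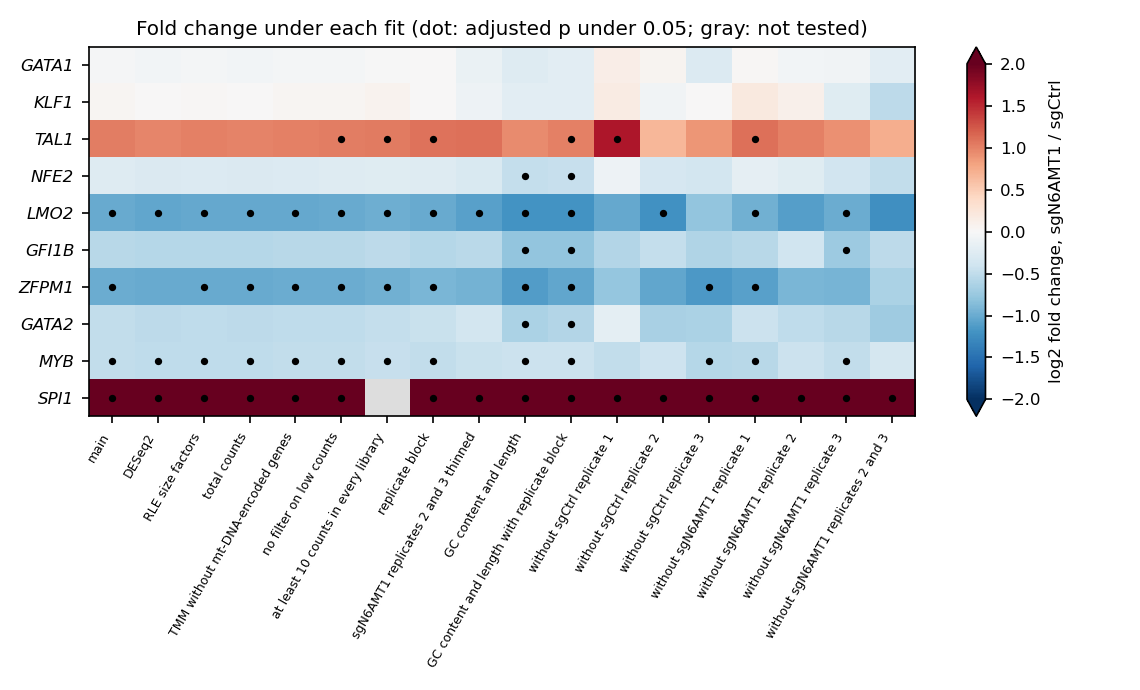
Log2 fold change of each factor (rows; color, clipped at 2 units either way) in the fit reported and in 17 alternatives (columns); a dot marks an adjusted p under 0.05 and gray a fit that did not test the gene. SPI1 carries a dot in every column that tested it, and GATA1 and KLF1 in none.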

How the data were processed

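RNA-Seq libraries of K562 cells, 3 sgCtrl and 3 sgN6AMT1, were grouped by their labels. The authors trimmed reads with cutadapt (minimum length 15, quality cutoff 2), mapped them with HISAT2 at default settings to GRCh38, overlapped them with gene annotation and deposited the raw count of each gene, without normalization; the counting tool is not given in the sources used here. The labels list polyA RNA, and the protocol a stranded total RNA kit with rRNA depletion.

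From these counts, edgeR 4.0.16 (R 4.3.3) was run with filterByExpr, TMM factors and a quasi-likelihood test over 8324 of 19330 genes, with no covariate; SEs are the absolute log2 fold change over the square root of F, and intervals use the same degrees of freedom. Single genes had exact two-sided permutation tests. DESeq2 1.42.0, other normalizations and filters, a replicate block, thinning, a GC and length correction, and leaving out libraries were alternatives. Of the symbols, 18860 matched GENCODE v44, which gave positions, lengths and GC content. Pairs of libraries of a group differed by a chi-square of 2.04 to 11.9 per degree of freedom. That is more than sampling noise, so no library was a repeat count of another. This measure grows with depth and cannot show that samples are independent. Each library counts as its own sample because the paper describes separate transductions. On simulated counts for sgN6AMT1 against sgCtrl (8280 genes tested), 90 of 90 genes changed by 2 log2 units, 68 of 95 changed by 1 and 8 of 8095 unchanged ones were called.

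The text names the 10 factors, N6AMT1, up to 8 called genes of each list by adjusted p with the 3 most abundant of each, and the 3 genes most like GATA1 or a called factor. The factors and lists were chosen with earlier results of these data known, so the shares of them that were called are not independent of these data. Replicates are separate transductions of 1 line, so p-values measure the spread between cultures. The 95% intervals of log2 fold changes come from the edgeR fit and include the spread between libraries. The 95% Wilson and counting intervals cover counting error only, and a count of 0 was read as up to 3 counts. Some genes of the lists are counted but not reported here by name.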

Additional observations from a re-analysis of the deposited data

How the results depend on the processing

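SPI1 kept its direction and call in the 16 alternatives that tested it (log2 fold change 4.65 to 8.33), and LMO2, ZFPM1, MYB, GFI1B, GATA2, NFE2 and TAL1 kept their direction in all 17. LMO2 was called in 13 of them, MYB in 12, ZFPM1 in 10, TAL1 in 6, GFI1B in 3, and NFE2 and GATA2 in 2 each. The members called numbered 4 as reported, 2 after thinning, 7 with the GC and length correction, 8 with that correction and the replicate block, 1 without sgN6AMT1 replicates 2 and 3 (chosen after seeing the data; the remaining library is assumed to vary like the others), and 1 to 5 when 1 library was left out. All genes called numbered 820 as reported, 1357 with correction and block, 122 without both deep libraries and 220 to 951 without 1 library; genes of the lists numbered 35, then 7 without both deep libraries and 15 to 34 without 1 library. After thinning all genes called numbered 633, and with the GC and length correction alone 909. The cause was not tested.

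The erythroid minus progenitor difference of 0.24 was 0.14 after thinning and -0.00312 with the GC and length correction, alone and with the block. The erythroid minus SPI1 difference of -4.10 was -2.97 after thinning. DESeq2 gives no value for these 2 differences, and with 10 counts required in every library there is none against SPI1. The sign of uncalled genes turned. GATA1 was 0.0035 with the block and -0.28 to 0.14 without 1 library. KLF1 was -0.10 after thinning, -0.20 with GC and length, -0.21 with the block added, -0.53 without both deep libraries and -0.24 to 0.20 without 1 library. RBM5 was -0.067 after thinning, -0.00573 with GC and length, -0.12 without both deep libraries and -0.21 to 0.16 without 1. PPP5C was -0.0046 after thinning, -0.14 with GC and length, -0.10 with the block added and -0.17 to 0.20 without 1 library. DHCR7 was -0.10 with GC and length, -0.087 with the block added, -0.15 without both deep libraries and -0.13 to 0.19 without 1. CD3D was -0.075 with GC and length, -0.033 with the block added and -0.069 to 0.33 without 1 library; EPCAM was 0.029 without both deep libraries; BTK ran from -0.44 to 0.060 and CHD4 from -0.18 to 0.0081 without 1 library.

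The r of deviations of same-numbered libraries was -0.0005, 0.083 and 0.19. The value for replicates 3 was the highest of any sgCtrl and sgN6AMT1 pair. In contrast, sgCtrl replicate 1 went best with sgN6AMT1 replicate 2, and sgCtrl replicate 2 with sgN6AMT1 replicate 1. Whether same-numbered libraries were handled together is not given in the sources used here and was not tested. The replicate block moved the genes called from 820 to 1195 and the members from 4 to 5 (TAL1 1.09, adjusted p = 0.0204). The shallow sgCtrl libraries, at 742470 to 866894 counts, limit TAL1, LMO2 and ZFPM1 to 10 to 46 counts each.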

Other observations

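Megakaryocyte genes, which share NFE2, GFI1B and GATA1 as regulators, showed no called change in the fit reported. Of 29 genes 4 were tested, with 0 called by edgeR and 1 at an unadjusted p under 0.05, and DESeq2 called 0 of 8. The list includes NFE2, a member of the 10 factors, so it is not separate from them. In some other fits 1 gene of the list was called lower. With the GC and length correction it was NFE2, alone or with the block (edgeR adjusted p = 0.0431 and 0.0210). With RLE size factors, with no filter, and with 10 counts required in every library it was another gene. NFE2 was not called in those fits. ARHGAP6 stood at 103 ± 6.77 TMM cpm in sgCtrl and 88.1 ± 13.8 in sgN6AMT1 and the thrombin receptor F2R at 16.7 ± 2.26 and 22.8 ± 5.80. The summed level of the list, NFE2 included, was 329 to 431 cpm in sgCtrl and 276 to 347 cpm in sgN6AMT1. Of its genes 10 had 0 counts in all 6 libraries.

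Of 15 lymphoid genes 1 was tested: CD3D at 15.6 ± 3.55 and 17.2 ± 3.84 TMM cpm, not called. CD3G had 0, 4 and 2 counts in sgCtrl and 0 in each sgN6AMT1 library, and NKG7 the other way 0 in each sgCtrl library and 1, 6 and 6. The list summed to 13.9 to 20.8 cpm in sgCtrl and 15.2 to 22.6 cpm in sgN6AMT1, with 8 genes at 0 throughout. Of 13 stromal, epithelial and endothelial genes 4 were tested and 2 rose: the keratins KRT8 (0.75, edgeR adjusted p = 0.00693) and KRT18 (0.76, adjusted p = 0.00781), which K562 cells express, or 50% called against 9.85% of all genes. KRT8 lost its call without sgCtrl replicate 2 (adjusted p = 0.0630), KRT18 without sgCtrl replicate 1 (0.0511), and neither was called without both deep sgN6AMT1 libraries (0.196 and 0.0959). EPCAM was not called (-0.35), LUM, PDGFRB, CDH5 and KDR were at 0 in all libraries, and the list summed to 927 to 1088 cpm in sgCtrl and 1435 to 1736 cpm in sgN6AMT1.

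Beside the factors that fell, some neighbouring genes were called, named after their values were seen. ZC3H18, 33371 bases from ZFPM1, fell by 0.72 on the log2 scale (edgeR adjusted p = 0.0386), and CD59, 122096 bases from LMO2, rose by 0.63 (adjusted p = 0.0328). The tested neighbours of MYB, HBS1L (-0.09) and AHI1 (-0.25), were not called.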
